A study of Mus musculus with 18 samples.

Results

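The effector and cytotoxic programme of CD8 T cells is described here through 10 genes. They are Gzmb, Prf1, Nkg7, Fasl, Tnf, Ifng, Zfp683, Prdm1, Tbx21 and Eomes, and they were chosen by name from the count table. All 10 were measured, of 14695 genes in all. Levels come from poly-A RNA sequencing of primary mouse CD8+ T cells from spleen and lymph node in 18 libraries. The 6 groups of 3 libraries were Atf4 KO cells cultured with halofuginone, Atf4 KO cells without it, Cebpg KO cells with halofuginone, Cebpg KO cells without it, Rosa26 cells with halofuginone and Rosa26 cells without it. Culture with or without the drug lasted 24 hours, its dose is not stated in the labels, and all groups, Rosa26 included, were targeted with CRISPR/Cas9. Halofuginone inhibits prolyl-tRNA synthetase, ATF4 is the transcription factor of the amino acid stress response, C/EBPγ (Cebpg) is a bZIP factor that pairs with it, and Rosa26 is a neutral locus used as the targeting control. The labels do not say whether a knockout is a pool or a clone, how complete the editing was, or whether the 3 libraries of a group stem from different animals or cultures, so the p-values cover the spread among these libraries alone, which may be technical.

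A cytotoxic CD8 T cell kills by granule release and by death ligands. It releases granules in which perforin (Prf1) opens the target membrane to granzymes such as granzyme B (Gzmb), and Nkg7 is a granule membrane protein needed for efficient release. It also shows the death ligand FasL (Fasl) and secretes the cytokines TNF and interferon-γ (Ifng). The T-box factors T-bet (Tbx21) and Eomesodermin (Eomes) drive much of this programme, and the repressors Blimp-1 (Prdm1) and Hobit (Zfp683) shape effector and tissue-resident states.

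Libraries held 14.2 to 20.3 M counts (M, 1e+06). All 10 markers of CD8 T cells were measured, and their summed level ran from 3483 to 4692 CPM (counts-per-million after TMM scaling) across libraries. The sum was 3483 to 4399 CPM in treated against 4405 to 4588 CPM in untreated Atf4 KO libraries and 3648 to 3944 CPM in treated against 4403 to 4463 CPM in untreated Cebpg KO libraries, with no overlap in either knockout. In Rosa26 cells it was 3955 to 4692 CPM with the drug and 4415 to 4497 CPM without, which overlapped. Of the 10 markers 3, 4 and 3 fell with the drug in Atf4 KO, Cebpg KO and Rosa26 cells and 1 rose in each. The share called was thus 40%, 50% and 40%, beside 49.6%, 51.0% and 47.7% of all genes. Their median log2 fold change was -0.14, -0.13 and 0.03. The largest parts of the sum were Thy1 (800 to 1472 CPM across libraries) and Cd8a (929.6 to 1169 CPM). Of 8 NK cell markers 2 were measured, Nkg7 itself and Fcer1g, and Fcer1g was at no more than 0.833 CPM. Of 11 myeloid markers 2 were measured (Cd68 and Mpeg1); their summed level was 5.91 to 10.5 CPM with halofuginone and 2.71 to 5.2 CPM without, so it moved with the drug, and its part in the drug comparisons was not tested. The 4 of 7 CD4 T cell markers measured, mostly Il2ra, which activated CD8 T cells also express, summed to 594 to 662 CPM in Atf4 KO, 659 to 789.6 CPM in Cebpg KO and 800 to 847 CPM in Rosa26 libraries over both conditions. This sum was therefore lower in both knockouts than in Rosa26, and its part in the knockout comparisons was not tested. The 5 of 8 B cell markers measured, mostly Ighm, summed to 397 to 498 CPM. With halofuginone this sum was 439 to 491 CPM in Cebpg KO and 436 to 498 CPM in Rosa26 cells. Without it, the sum was 409.5 to 419.8 CPM and 397 to 433 CPM, so neither pair overlapped. In Atf4 KO cells it was 407 to 493 CPM with the drug and 407 to 421 CPM without, which overlapped. Its part in the drug comparisons was not tested. Of 8 erythroid and platelet markers 3 were measured, at 4.04 to 12.6 CPM with halofuginone and 3.03 to 7.95 CPM without. In bulk RNA, fewer cells of a type and less RNA per cell cannot be told apart. In 3 halofuginone libraries the nuclear RNA Malat1 was lowest of its group: 1158 CPM in Atf4 KO replicate 3 against 2404 and 3415 CPM, 1959.7 CPM in Cebpg KO replicate 3 against 3237 and 3579.7 CPM, and 672 CPM in Rosa26 replicate 2 against 2074 and 2607 CPM. Without drug, Malat1 was 2026 to 2606 CPM in both knockouts and 858 to 1168 CPM in Rosa26, so it separated knockout from control there. With the drug, the Malat1 levels above overlapped between each knockout and Rosa26. Atf4 and Cebpg mRNA stayed present in their own knockouts (285 ± 14.4 CPM Atf4 in untreated Atf4 KO cells against 268 ± 12.5 CPM in untreated Rosa26 cells, and 56.4 ± 2.33 CPM Cebpg in untreated Cebpg KO cells against 53.7 ± 1.28 CPM in untreated Rosa26 cells, SD, n = 3). With halofuginone, Atf4 mRNA was 315 ± 57.3 CPM in Atf4 KO against 379 ± 42.8 CPM in Rosa26 cells, and Cebpg mRNA was 101 ± 6.37 CPM in Cebpg KO and 131 ± 7.29 CPM in Atf4 KO against 173 ± 8.67 CPM in Rosa26 cells (SD, n = 3). Cebpg mRNA was thus lower in both knockouts with the drug and not in its own knockout without it. A small insertion or deletion need not change an mRNA level, so these levels do not settle the labels.

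**Figure D1:**
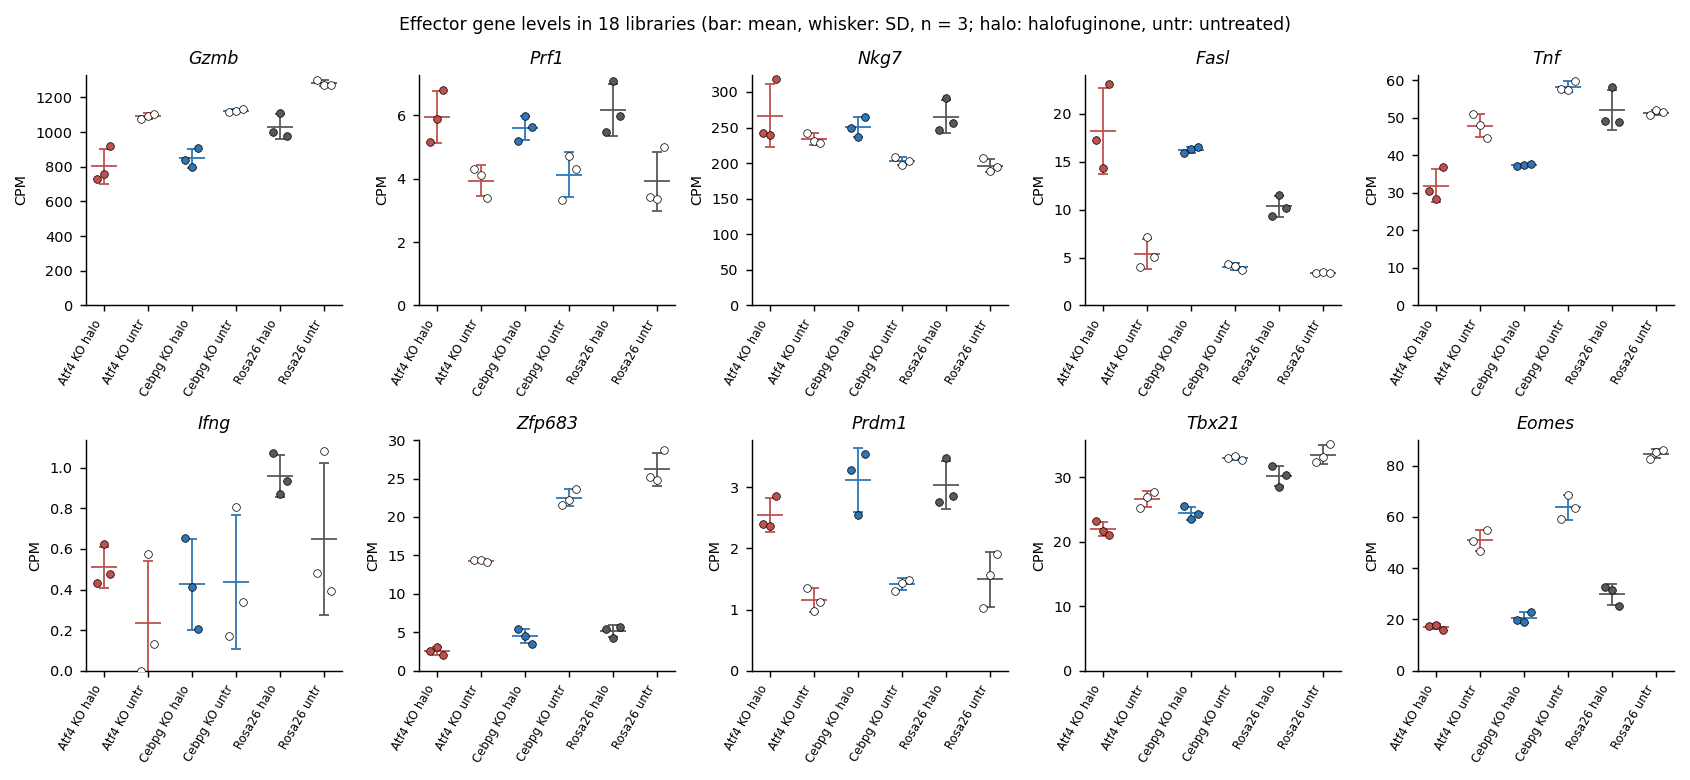
Levels of the 10 genes in counts-per-million (CPM, vertical axes starting at 0) in each library, by group; filled points are halofuginone, open points untreated, the bar is the mean and the whisker the SD (n = 3). Zfp683 and Eomes sit lower with the drug in all 3 genotypes, Fasl and Prdm1 sit higher, and Tnf sits lower with the drug in both knockouts, at 28.3 to 36.9 CPM in Atf4 KO and 37.2 to 37.6 CPM in Cebpg KO cells.

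The genes differed widely in abundance. Per kilobase of exon, untreated Rosa26 cells had 893 ± 11.7 CPM per kb of Gzmb, 215 ± 10.5 of Nkg7, 31.4 ± 0.401 of Tnf, 20.4 ± 0.45 of Eomes, 17.8 ± 1.48 of Zfp683 and 13.5 ± 0.584 of Tbx21 (SD, n = 3). Fasl followed at 1.77 ± 0.0489, Prf1 at 1.52 ± 0.36, Ifng at 0.502 ± 0.287 and Prdm1 at 0.268 ± 0.0801 CPM per kb. The libraries of neighbouring genes in this order did not overlap, except for Fasl with Prf1 and Ifng with Prdm1. Perforin mRNA was thus measured from 51 to 114 counts per library, while granzyme B had 11652 to 22664. With halofuginone the order changed: in Atf4 KO cells Fasl (9.4 ± 2.31 CPM per kb) stood next to Tbx21 (8.83 ± 0.457), and Zfp683 (1.74 ± 0.35) stood below Prf1 (2.3 ± 0.319), though each of these pairs overlapped.

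Halofuginone against untreated cells was the first comparison, made within each genotype. Fasl and Prdm1 were higher with the drug, and Gzmb, Zfp683 and Eomes lower, in all 3 genotypes; Fasl had 3.36, 4.01 and 3.02 times and Zfp683 0.179, 0.202 and 0.197 times its untreated level in Atf4 KO, Cebpg KO and Rosa26 cells. Calls were made with edgeR's quasi-likelihood test where p, adjusted by Benjamini-Hochberg across the 14695 genes, was below 0.05. By this rule 3 members rose, 5 fell and 2 were not called in Atf4 KO cells, where 49.6% of all genes were called. In Cebpg KO cells the same counts were 3, 5 and 2 against 51.0% of all genes, and in Rosa26 cells 4 rose, 3 fell and 3 were not called against 47.7%. These backgrounds are high, so a called member is not unusual in itself. The median log2 fold change of the members was -0.05, -0.21 and 0.23 in Atf4 KO, Cebpg KO and Rosa26 cells, beside -0.0418, -0.0294 and 0.0216 over all genes.

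**Figure D2:**
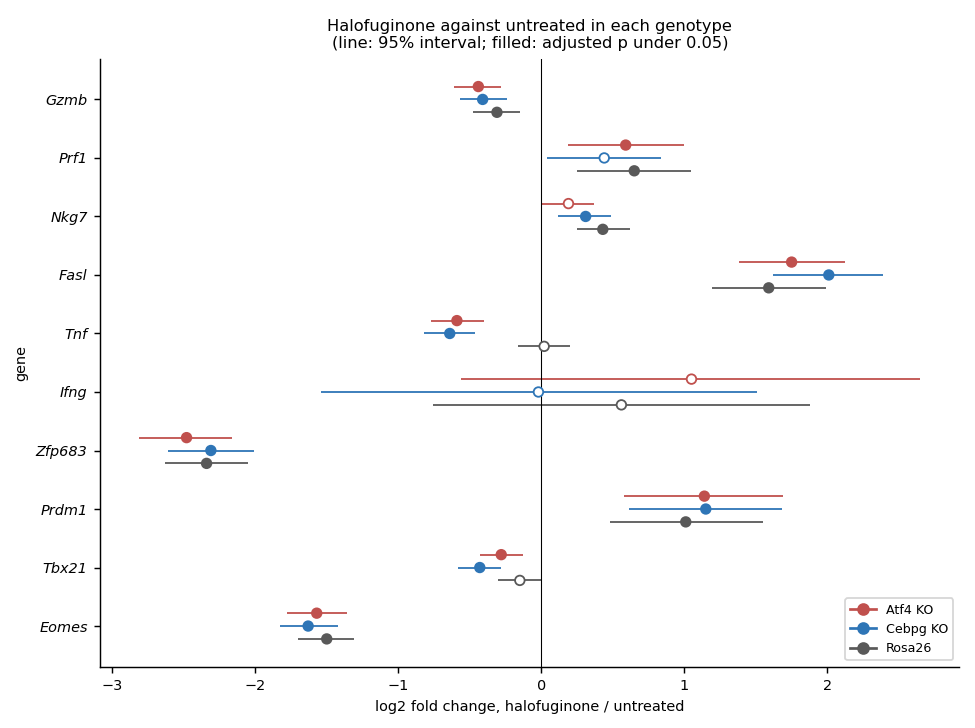
Log2 fold changes of halofuginone against untreated cells (horizontal axis) for the 10 genes in Atf4 KO, Cebpg KO and Rosa26 cells, with 95% intervals; filled points passed an adjusted p of 0.05. Zfp683 lies near -2.3 to -2.5 and Eomes near -1.5 to -1.6 in all 3 genotypes, while Tnf lies at -0.59 and -0.64 in the knockouts and at 0.02 in Rosa26.

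Among the granule genes, Gzmb fell in all 3 genotypes. It had 730.4, 756 and 920.4 CPM in Atf4 KO cells with halofuginone, against 1076, 1095 and 1106 CPM without. In Cebpg KO cells it had 838, 799.7 and 906 CPM with the drug, against 1118, 1119 and 1134 CPM without, and in Rosa26 cells 1001, 1113 and 979 CPM with it, against 1302, 1273 and 1272 CPM without. Treated libraries lay below untreated ones in each genotype and were more spread. The SD was 103, 53.8 and 71.7 CPM in treated Atf4 KO, Cebpg KO and Rosa26 cells (n = 3). In untreated cells it was 14.9, 8.94 and 16.9 CPM in the same order. The SE below comes from the spread over all 6 groups. The log2 fold changes were -0.44 ± 0.0802 (SE, adjusted p = 0.000104), -0.41 ± 0.0802 (adjusted p = 0.000253) and -0.31 ± 0.08 (adjusted p = 0.00283) in Atf4 KO, Cebpg KO and Rosa26 cells by edgeR. The Atf4 KO library with the highest treated Gzmb, replicate 3, is the one low in Malat1; leaving out the 3 low libraries gave -0.52, -0.42 and -0.33. Paralogous granzyme genes could share some reads with Gzmb.

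Prf1 had 5.16, 5.87 and 6.8 CPM in treated Atf4 KO cells against 4.31, 4.1 and 3.38 CPM in untreated ones. In Rosa26 cells it had 5.47, 7.08 and 5.98 CPM with the drug against 3.42, 3.35 and 4.99 CPM without. These are rises of 0.59 ± 0.192 (adjusted p = 0.0141 by edgeR) and 0.65 ± 0.19 (adjusted p = 0.00806 by edgeR), or 1.51-fold and 1.57-fold. In Cebpg KO cells the levels were 5.19, 5.97 and 5.63 CPM with the drug against 3.34, 4.72 and 4.32 CPM without, and the change of 0.44 (95% interval 0.04 to 0.84) did not pass in edgeR (adjusted p = 0.0646), although the libraries did not overlap. Median-ratio scaling gave 0.49 with an adjusted p of 0.0347 by edgeR, and upper-quartile scaling 0.55 with 0.0186; it passed in 6 of 13 alternatives. The Atf4 KO call ended without the untreated replicate 3 (0.50, adjusted p = 0.066 by edgeR).

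Nkg7 rose in Cebpg KO cells, with 249.6, 237 and 265 CPM in treated libraries against 209, 197 and 203 CPM in untreated ones (0.31 ± 0.0881, adjusted p = 0.00671 by edgeR). It also rose in Rosa26 cells, with 247, 292 and 257 CPM against 207, 189 and 194 CPM (0.43 ± 0.088, adjusted p = 0.000408 by edgeR). In Atf4 KO cells it had 243, 239 and 318 CPM with the drug against 243, 231 and 228 CPM without (0.19 ± 0.0878, adjusted p = 0.0855 by edgeR), and the groups overlapped. The high value of 318 CPM belongs to the low-Malat1 library. Leaving out the 3 such libraries gave 0.08 in Atf4 KO (adjusted p = 0.176 by edgeR), 0.30 in Cebpg KO and 0.40 in Rosa26. Without the treated Atf4 KO replicate 1 or 2 it passed, at 0.25 (adjusted p = 0.0386 by edgeR) and 0.26 (adjusted p = 0.0225 by edgeR), as it did with median-ratio scaling (0.23, adjusted p = 0.0162 by edgeR) and in 6 of 14 alternatives in all.

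The promoter of Nkg7 is shown because it was the one of 9 member promoters with a match to any of 4 motifs searched on both strands. RefSeq promoters of the build GRCm38.p6 (300 bases: 250 before and 50 after the annotated start) were given for 9 of the 10 members; Zfp683 had no entry. The motifs were TGATGNAA, the core of the C/EBP-ATF composite element (in 3.97% of 32851 promoters), TGACGTCA, the cAMP response element (1.79%), GGTGTGA, part of the T-box factor site (3.98%), and GTGAAAG, a PRDM1 core (4.24%). The match is this T-box sequence on the strand of Nkg7, 13 to 7 bases before the start, in capitals below. No other member window held these letters, which says nothing about binding. The windows of Fasl, which was higher in both treated knockouts than in treated Rosa26 cells, and of Tnf, whose drug response differed between knockouts and Rosa26, are also shown and hold no capitals. The intervals are chr7:43436888-43437187 (plus strand) for Nkg7, chr1:161788446-161788745 (minus strand) for Fasl and chr17:35201958-35202257 (minus strand) for Tnf, each printed 5′ to 3′ along its gene.
Nkg7: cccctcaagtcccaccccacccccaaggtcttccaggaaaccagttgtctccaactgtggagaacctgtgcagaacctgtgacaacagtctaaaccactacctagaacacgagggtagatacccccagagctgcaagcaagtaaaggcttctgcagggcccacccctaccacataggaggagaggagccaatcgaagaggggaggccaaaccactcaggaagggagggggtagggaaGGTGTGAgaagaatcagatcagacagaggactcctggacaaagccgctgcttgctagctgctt
Fasl: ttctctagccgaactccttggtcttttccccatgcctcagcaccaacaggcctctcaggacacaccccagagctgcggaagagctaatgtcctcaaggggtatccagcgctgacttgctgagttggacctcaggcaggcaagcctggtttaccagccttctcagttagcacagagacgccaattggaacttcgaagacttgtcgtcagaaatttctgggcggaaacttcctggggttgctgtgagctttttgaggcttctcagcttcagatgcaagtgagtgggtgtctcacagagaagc
Tnf: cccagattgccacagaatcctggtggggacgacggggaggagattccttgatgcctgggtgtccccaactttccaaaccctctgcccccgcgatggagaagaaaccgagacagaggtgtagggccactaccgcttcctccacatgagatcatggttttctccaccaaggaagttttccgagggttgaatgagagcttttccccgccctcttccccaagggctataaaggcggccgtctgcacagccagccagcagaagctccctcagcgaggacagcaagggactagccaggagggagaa

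Of the death ligand and cytokine genes, Fasl rose in every genotype. It had 17.3, 14.3 and 23.1 CPM in treated Atf4 KO cells against 4.01, 7.1 and 5.1 CPM in untreated ones. Cebpg KO cells had 15.9, 16.3 and 16.5 CPM against 4.36, 4.09 and 3.65 CPM, and in Rosa26 cells 9.35, 11.5 and 10.2 CPM against 3.36, 3.53 and 3.37 CPM. No treated library overlapped an untreated one. The log2 fold changes were 1.75 ± 0.178 in Atf4 KO, 2.01 ± 0.184 in Cebpg KO and 1.59 ± 0.19 in Rosa26 cells (adjusted p = 7.98e-08, 1.75e-08 and 8.61e-07 by edgeR).

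Tnf differed between genotypes in its response. In treated Atf4 KO cells it had 30.5, 28.3 and 36.9 CPM against 50.9, 48.1 and 44.7 CPM in untreated ones, a fall of 0.59 ± 0.0875 on the log2 scale (adjusted p = 1.22e-05 by edgeR). Cebpg KO cells had 37.2, 37.3 and 37.6 CPM with the drug against 57.7, 57.3 and 59.9 CPM without, a fall of 0.64 ± 0.0862 (adjusted p = 3.09e-06 by edgeR). In Rosa26 cells the levels were 49.2, 58.2 and 48.8 CPM with the drug against 50.7, 52 and 51.5 CPM without, and the change was 0.02 with a 95% interval of -0.16 to 0.20 (adjusted p = 0.882 by edgeR). The treated knockout libraries all lay below their untreated libraries, and the Rosa26 groups overlapped.

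Ifng was close to the limit of the assay. Its group means were 0.51 ± 0.101 CPM in treated and 0.237 ± 0.302 CPM in untreated Atf4 KO cells, 0.425 ± 0.224 and 0.438 ± 0.33 CPM in treated and untreated Cebpg KO cells, and 0.956 ± 0.0999 and 0.65 ± 0.372 CPM in treated and untreated Rosa26 cells (SD, n = 3). One untreated Atf4 KO library held 0 counts, which allows up to 3 counts or 0.184 CPM, and the highest library had 22 counts. No comparison called it in edgeR, and the intervals were wide (0.56 in Rosa26, from -0.76 to 1.88), so a change was not detectable at this depth with all libraries. The gene overlaps Gm49751 on the same strand. Without the untreated Atf4 KO replicate 2 the drug change in Atf4 KO was called (2.85 in place of 1.05, adjusted p = 0.024 by edgeR), as was untreated Atf4 KO against Rosa26 (-3.19 in place of -1.39, adjusted p = 0.0245 by edgeR).

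Among the transcription factors, Zfp683 and Eomes fell together by the largest amounts of the 10 genes. Zfp683 had 2.58, 3.06 and 2.03 CPM in treated Atf4 KO cells against 14.4, 14.4 and 14.1 CPM in untreated ones. It had 5.41, 4.53 and 3.54 CPM in treated Cebpg KO cells against 21.6, 22.2 and 23.7 CPM, and 5.47, 4.28 and 5.73 CPM in treated Rosa26 cells against 25.2, 24.8 and 28.7 CPM. These are levels of 0.179, 0.202 and 0.197 of untreated, or log2 fold changes of -2.48 ± 0.156, -2.31 ± 0.142 and -2.34 ± 0.137 (adjusted p = 7.56e-11, 4.76e-11 and 3.44e-11 by edgeR). In each genotype the low-Malat1 library was the lowest of the treated ones, and without these libraries the changes were -2.31, -2.13 and -2.19.

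Eomes had 17.6, 17.7 and 16 CPM in treated Atf4 KO cells against 50.7, 46.7 and 55.1 CPM in untreated ones. It had 19.9, 19 and 23.1 CPM in treated Cebpg KO cells against 59.1, 68.6 and 63.5 CPM, and 32.6, 31.5 and 25.2 CPM in treated Rosa26 cells against 82.6, 85.4 and 86.1 CPM. The log2 fold changes were -1.57 ± 0.0993, -1.63 ± 0.0974 and -1.50 ± 0.0934 (adjusted p = 8.14e-11, 3.24e-11 and 7.74e-11 by edgeR). The treated level was 0.337, 0.324 and 0.352 of the untreated level, and no treated library overlapped an untreated one. Gm33460 overlaps Eomes on the opposite strand and reached 1.46 CPM, and the strand setting of the counting is not given in the sources used here.

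Prdm1 rose in every genotype, by 2.2, 2.21 and 2.02 times in Atf4 KO, Cebpg KO and Rosa26 cells. It had 2.4, 2.37 and 2.86 CPM in treated Atf4 KO cells against 1.36, 0.981 and 1.13 CPM, 3.28, 2.54 and 3.54 CPM in treated Cebpg KO cells against 1.3, 1.44 and 1.49 CPM, and 2.76, 3.48 and 2.86 CPM in treated Rosa26 cells against 1.02, 1.56 and 1.91 CPM. The log2 fold changes were 1.14 ± 0.266, 1.15 ± 0.258 and 1.01 ± 0.255 (adjusted p = 0.00133, 0.000908 and 0.0026 by edgeR). Treated libraries lay above untreated ones in every genotype. Tbx21 moved less: 23.2, 21.7 and 21 CPM in treated Atf4 KO cells against 25.3, 26.9 and 27.8 CPM, and 25.5, 23.5 and 24.3 CPM in treated Cebpg KO cells against 33, 33.3 and 32.7 CPM. It fell by 0.28 ± 0.0728 (adjusted p = 0.00332 by edgeR) and by 0.43 ± 0.0716 (adjusted p = 3.81e-05 by edgeR). In Rosa26 cells it had 31.7, 28.5 and 30.4 CPM with the drug against 32.3, 33.1 and 35.1 CPM without, and its change of -0.15 did not pass in edgeR (adjusted p = 0.0872). The Atf4 KO call for Tbx21 ended without the treated replicate 3 (-0.20, adjusted p = 0.0529 by edgeR).

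Whether the drug's effect differed between genotypes was tested by interaction terms. Of the 10 members, Tnf was the one called in edgeR for each knockout against Rosa26, with a lower response in the knockout. The difference of its log2 fold changes was -0.60 ± 0.122 for Atf4 KO (95% interval -0.86 to -0.35, adjusted p = 0.00452 by edgeR) and -0.66 ± 0.121 for Cebpg KO (-0.91 to -0.41, adjusted p = 0.0044 by edgeR). Over all genes 6.42% and 2.47% were called in these 2 interactions. Both terms are set against the same Rosa26 libraries, so the 2 Tnf calls are not independent. Each interaction kept its call and direction in all 20 alternative analyses, with values from -0.65 to -0.50 for Atf4 KO and from -0.70 to -0.53 for Cebpg KO (adjusted p from 1.02e-05 to 0.0227 and from 2.51e-05 to 0.0173). Without the 3 low-Malat1 libraries the values were -0.64 and -0.58. In the Rosa26 libraries then kept, Malat1 was 2074 and 2607 CPM with the drug and 858 to 1168 CPM without. Leaving them out therefore does not balance Malat1 between groups. The summed CD8 T cell markers, with Thy1 and Cd8a as the largest parts, were likewise lower with the drug in both knockouts and overlapped in Rosa26 (above). Their median log2 fold change was -0.14 in Atf4 KO, -0.13 in Cebpg KO and 0.03 in Rosa26, and their part in the Tnf result was not tested. The knockouts were not separated from each other in this response: the Tnf difference was -0.05 for Cebpg KO against Atf4 KO, with an interval of -0.31 to 0.20. In that comparison 0 members were called, 0 members reached an unadjusted p of 0.05, and 0.0136% of all genes were called in edgeR; limma-voom and DESeq2 called 0 members too.

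**Figure D3:**
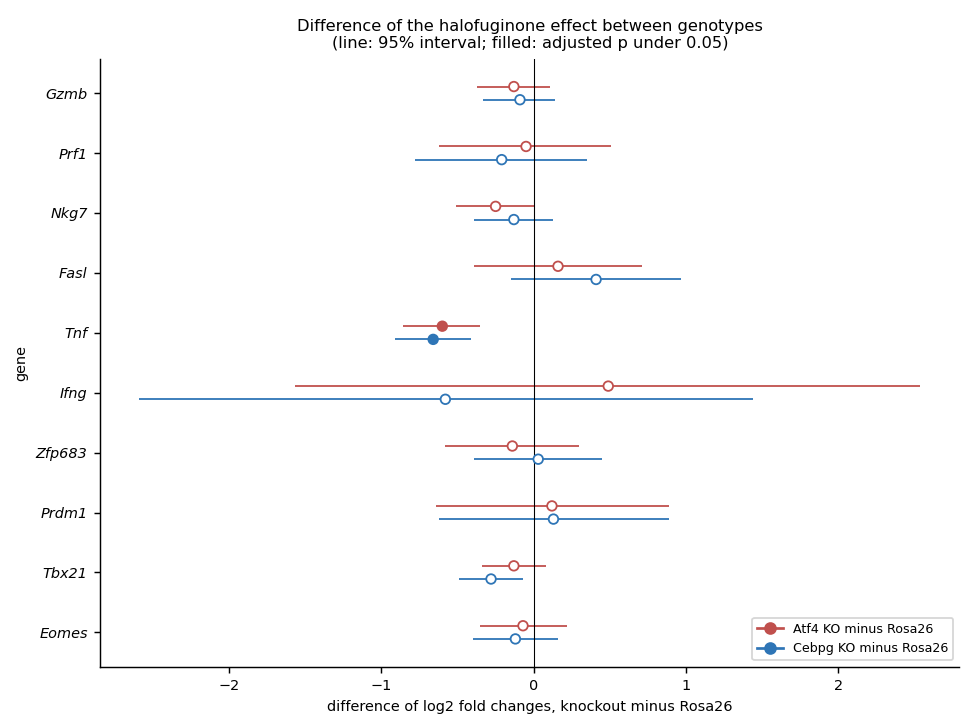
Difference between the halofuginone log2 fold change in a knockout and that in Rosa26 (horizontal axis) for the 10 genes, with 95% intervals; filled points passed an adjusted p of 0.05. Tnf is filled for both knockouts, at -0.60 and -0.66.

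For the other 9 members no difference was called, which does not show that the responses were alike. For Fasl the difference was 0.16 (-0.39 to 0.71) in Atf4 KO and 0.41 (-0.15 to 0.97) in Cebpg KO, and for Zfp683 it was -0.14 (-0.58 to 0.30) and 0.03 (-0.39 to 0.45). Eomes had -0.07 (-0.35 to 0.22) and -0.12 (-0.40 to 0.16). For Tbx21 the Cebpg KO value was -0.28 (-0.49 to -0.07, adjusted p = 0.173 by edgeR), and limma-voom called it at -0.32 (adjusted p = 0.035). For Nkg7 in Atf4 KO the value was -0.25 (-0.51 to 0.01, adjusted p = 0.284 by edgeR). Leaving out the 3 low-Malat1 libraries gave -0.32 (adjusted p = 0.000621 by edgeR), leaving out the treated Atf4 KO replicate 3 alone gave -0.32 (adjusted p = 0.01 by edgeR), and limma-voom gave -0.30 (adjusted p = 0.00467). Gzmb in Atf4 KO was -0.13 (adjusted p = 0.582 by edgeR) and became -0.19 (adjusted p = 0.0395 by edgeR) without the 3 libraries and -0.20 by limma-voom (adjusted p = 0.022).

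The knockouts were next set against Rosa26, with and without the drug; within a condition both knockouts are set against the same 3 Rosa26 libraries. With halofuginone, Atf4 KO cells had more Fasl and less Gzmb, Tnf, Zfp683, Tbx21 and Eomes: 1 member rose, 5 fell and 4 were not called, where 28.1% of all genes were called. In Cebpg KO cells with halofuginone 1 rose (Fasl), 4 fell (Gzmb, Tnf, Tbx21 and Eomes) and 5 were not called, against 18.9% of all genes. In untreated cells, Atf4 KO had 2 higher and 4 lower members against 26.0% of all genes, and Cebpg KO had 0 higher and 1 lower against 5.0%. The medians of the 10 genes were -0.41 and -0.24 with the drug and -0.28 and -0.06 without, in Atf4 KO and Cebpg KO, beside 0.00108, -0.0156, 0.0182 and 0.0102 over all genes.

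**Figure D4:**
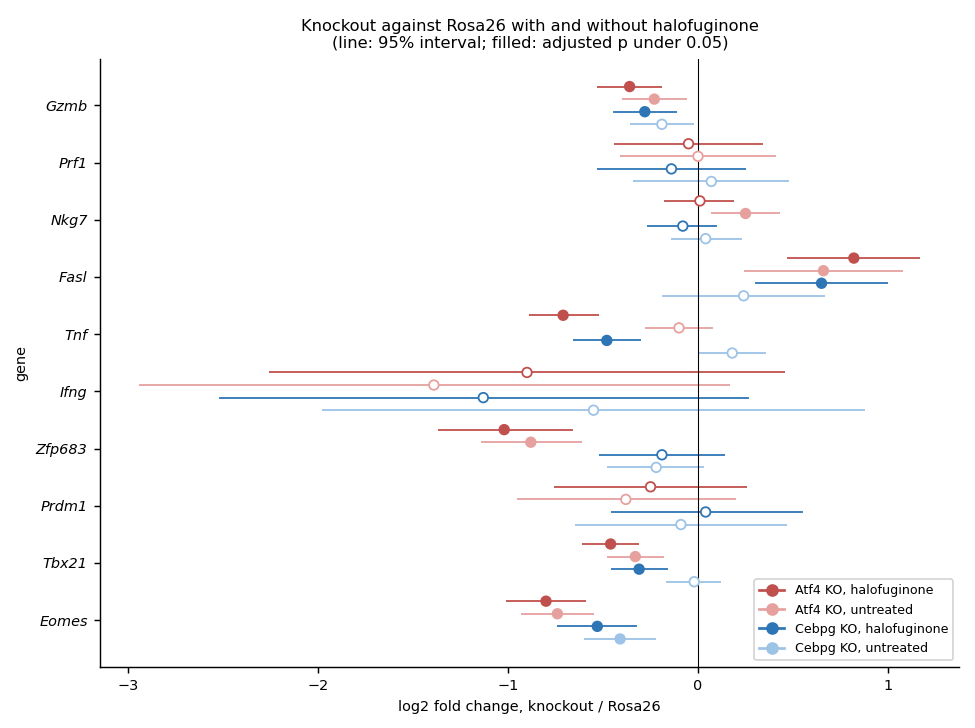
Log2 fold changes of each knockout against Rosa26, with halofuginone and untreated, for the 10 genes with 95% intervals; filled points passed an adjusted p of 0.05. Tnf is filled with halofuginone (-0.71 and -0.48) and open without it (-0.10 and 0.18), while Eomes is filled in all 4 comparisons.

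Eomes passed in all 4 comparisons. With the drug it was lower by 0.80 ± 0.101 in Atf4 KO and by 0.53 ± 0.0996 in Cebpg KO (log2 fold changes -0.80 and -0.53, adjusted p = 5.06e-06 and 0.000787 by edgeR). In untreated cells the values were -0.74 ± 0.0905 and -0.41 ± 0.0895 (adjusted p = 9.78e-06 and 0.0131 by edgeR), so Eomes fell to 0.6 and 0.753 of the Rosa26 level, and its libraries did not overlap with those of Rosa26. The untreated Cebpg KO call ended without the Rosa26 replicate 2 (adjusted p = 0.0611 by edgeR) or 3 (0.0509) and without the Cebpg KO replicate 1 (0.068) or 3 (0.0541), at -0.41 to -0.36.

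Fasl was higher in both knockouts with the drug, by 0.82 ± 0.167 in Atf4 KO and 0.65 ± 0.168 in Cebpg KO (adjusted p = 0.000852 and 0.00943 by edgeR). In untreated cells it was 0.66 ± 0.201 in Atf4 KO (adjusted p = 0.0195 by edgeR) and 0.24 with an interval of -0.19 to 0.67 in Cebpg KO. The untreated Atf4 KO call ended without the Rosa26 replicate 1 (0.65, adjusted p = 0.0567 by edgeR), the Rosa26 replicate 3 (0.65, adjusted p = 0.0544 by edgeR) or the Atf4 KO replicate 2 (0.41, adjusted p = 0.161 by edgeR), which had the highest untreated level, 7.1 CPM.

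Zfp683 was lower in Atf4 KO than in Rosa26 cells, at -1.02 ± 0.17 with the drug and -0.88 ± 0.125 without (adjusted p = 0.000122 and 4.46e-05 by edgeR). Its values in Cebpg KO cells were -0.19 and -0.22 (adjusted p = 0.437 and 0.269 by edgeR), and the untreated value passed in 2 of 13 alternatives (adjusted p from 0.0281 to 0.529). The direct test between the knockouts gave 0.83 ± 0.175 with the drug and 0.65 ± 0.126 without, higher in Cebpg KO than in Atf4 KO (adjusted p = 0.0249 and 0.00666 by edgeR). The call with the drug ended with a replicate block (0.82, adjusted p = 0.0503 by edgeR), with only the groups compared (0.83, adjusted p = 0.544 by edgeR), without the Atf4 KO replicate 1 or 3 (adjusted p = 0.0956 and 0.0626 by edgeR), and without the Cebpg KO replicate 1 or 2 (adjusted p = 0.178 and 0.0717 by edgeR).

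With the drug, Tbx21 was lower by 0.46 ± 0.072 in Atf4 KO and by 0.31 ± 0.0717 in Cebpg KO (log2 values -0.46 and -0.31, adjusted p = 6.32e-05 and 0.0049 by edgeR). Without it, Tbx21 was lower in Atf4 KO (-0.33 ± 0.0709, adjusted p = 0.0019 by edgeR) and at -0.02 in Cebpg KO. Gzmb fell in both knockouts with the drug (-0.36 ± 0.0801 and -0.28 ± 0.0801, adjusted p = 0.0018 and 0.0175 by edgeR) and in untreated Atf4 KO cells (-0.23 ± 0.08, adjusted p = 0.0385 by edgeR). Nkg7 rose in untreated Atf4 KO cells (0.25 ± 0.0881, adjusted p = 0.042 by edgeR). The untreated calls of Gzmb and Nkg7 each ended when any of the 6 libraries was left out (adjusted p from 0.0778 to 0.105 for Gzmb and from 0.051 to 0.129 for Nkg7 by edgeR). With the drug, the Cebpg KO call of Gzmb ended without the Cebpg KO replicate 1 (-0.27, adjusted p = 0.0633 by edgeR) and that of Tbx21 without the Cebpg KO replicate 2 (-0.26, adjusted p = 0.0505 by edgeR). With only the groups compared, the Gzmb calls in both knockouts and the Tbx21 call in Cebpg KO ended as well (adjusted p = 0.0698, 0.0841 and 0.0761 by edgeR). Upper-quartile scaling also ended the Tbx21 call in Cebpg KO (-0.22, adjusted p = 0.0665 by edgeR). Gzmb in untreated Cebpg KO cells, at -0.19 (adjusted p = 0.158 by edgeR), passed in 4 of 13 alternatives, with adjusted p from 0.000426 to 0.31.

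Tnf was lower in the knockouts with the drug, at -0.71 ± 0.087 in Atf4 KO and -0.48 ± 0.0864 in Cebpg KO (adjusted p = 4.22e-06 and 0.000583 by edgeR), and its interaction terms are given above. Without the drug the values were -0.10 (-0.28 to 0.08) and 0.18 (0 to 0.36), neither called in edgeR. The untreated Cebpg KO value was called with upper-quartile scaling (0.23, adjusted p = 0.0363 by edgeR), above 5 CPM (0.21, adjusted p = 0.0407 by edgeR), with only the groups compared (0.18, adjusted p = 0.0193 by edgeR) and by limma-voom (0.19, adjusted p = 0.0146), so higher in untreated Cebpg KO than in Rosa26 there. Ifng with the drug was -0.90 (-2.26 to 0.46) in Atf4 KO and -1.13 (-2.52 to 0.27) in Cebpg KO, neither called in edgeR. Its treated libraries held 0.43 to 0.624 CPM in Atf4 KO and 0.208 to 0.656 CPM in Cebpg KO. Those of Rosa26 held 0.869 to 1.07 CPM and did not overlap with either, at no more than 22 counts per library. Prf1 and Prdm1 were not called in any of the 4 comparisons. Their intervals with the drug were -0.44 to 0.34 and -0.53 to 0.25 for Prf1, and -0.76 to 0.26 and -0.46 to 0.55 for Prdm1, in Atf4 KO and Cebpg KO. Malat1 separates untreated knockouts from untreated Rosa26 (above), and its part in the untreated differences was not tested.

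Between the knockouts, 1 member (Zfp683) was called with halofuginone in the fit without a replicate block, where 1.00% of all genes were called. With the block 0 members and 90 genes were called (Zfp683 0.82, adjusted p = 0.0503 by edgeR). Tnf with halofuginone was 0.23 without the block (adjusted p = 0.256 by edgeR). It passed in 4 of 14 alternatives, among them leaving out the 3 low-Malat1 libraries (0.33, adjusted p = 0.0118 by edgeR). In untreated cells 2 were called, Zfp683 and Tbx21 (0.31 ± 0.071, adjusted p = 0.0192 by edgeR), both higher in Cebpg KO, where 3.32% of all genes were called. The Tbx21 call ended without any of the Atf4 KO replicates 1 and 2 and the Cebpg KO replicates 1, 2 and 3 (adjusted p from 0.0587 to 0.111 by edgeR) and with upper-quartile scaling (0.29, adjusted p = 0.0507 by edgeR). Tnf and Eomes, at 0.28 and 0.33, missed the threshold (adjusted p = 0.0764 and 0.0539 by edgeR) and passed in 6 and 5 of 13 alternatives; with only the groups compared they passed (0.27, adjusted p = 0.0042 and 0.32, adjusted p = 0.00224 by edgeR).

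Group means order the levels in the same way. Eomes ran from 84.7 ± 1.87 CPM in untreated Rosa26 through 63.7 ± 4.72 in untreated Cebpg KO, 50.8 ± 4.16 in untreated Atf4 KO, 29.8 ± 3.99 in treated Rosa26 and 20.7 ± 2.13 in treated Cebpg KO to 17.1 ± 0.905 in treated Atf4 KO, and no neighbouring groups overlapped. For Tnf the order was 58.3 ± 1.4 in untreated Cebpg KO, 52.1 ± 5.29 in treated Rosa26, 51.4 ± 0.657 in untreated Rosa26, 47.9 ± 3.13 in untreated Atf4 KO, 37.4 ± 0.185 in treated Cebpg KO and 31.9 ± 4.44 CPM in treated Atf4 KO cells. The first 4 of these overlapped with their neighbours, and the last 2 did not overlap with the rest or each other.

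Other genes of the same programme were counted by list, and the lists were chosen with earlier results of these data known. In the 3 drug comparisons, in the order Atf4 KO, Cebpg KO and Rosa26, the granule protein list (12 of 18 measured) had 3, 3 and 4 higher and 2, 3 and 3 lower genes, with medians of 0.14, -0.10 and -0.15. The granule release machinery (18 of 19 measured) had 4, 5 and 3 higher and 3, 4 and 6 lower (medians 0.08, 0.07 and 0). Death ligands and receptors (9 of 9) had 3, 4 and 5 higher and 1, 2 and 0 lower (medians 0.15, 0.04 and 0.28). Effector cytokines and chemokines (9 of 13) had 2, 2 and 2 higher and 1, 2 and 1 lower (medians -0.04, -0.35 and 0.10). The share of measured genes called was 41.7%, 50% and 58.3% for granule proteins, 38.9%, 50% and 50% for the release machinery, 44.4%, 66.7% and 55.6% for death ligands and receptors, and 33.3%, 44.4% and 33.3% for cytokines, beside 49.6%, 51.0% and 47.7% of all genes. The lists themselves were not tested.

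Among transcription factors more genes were called higher than lower, whereas over all 14695 genes 3397, 3391 and 3461 rose and 3897, 4110 and 3547 fell. Effector factors (15 of 15) had 8, 8 and 9 higher and 4, 6 and 4 lower genes, with medians of 0.75, 0.75 and 0.78. Factors that oppose the effector state (11 of 11) had 8, 8 and 7 higher and 2, 1 and 2 lower (medians 0.71, 0.59 and 0.43). Of the measured genes 80%, 93.3% and 86.7% of effector factors and 90.9%, 81.8% and 81.8% of opposing factors were called, beside the shares of all genes above, and these lists, chosen with earlier results known, were not tested. Bach2, a repressor of effector genes, rose to 209.6 CPM in treated Atf4 KO cells against 69 CPM untreated (1.60), to 195 against 53.9 CPM in Cebpg KO (1.86) and to 144 against 39.5 CPM in Rosa26 (1.87). Rora rose by 2.45, 2.34 and 2.13, Bcl6 by 2.10, 1.94 and 1.82, and Klf2, a quiescence and trafficking factor counted in the effector list, by 1.49, 1.75 and 1.64. Lef1, a partner of TCF1, rose by 0.99, 1.11 and 1.02 and Klf3 by 1.14, 1.38 and 1.44 (each adjusted p under 0.05 by edgeR). Tcf7, which encodes TCF1, rose in the knockouts (0.71 and 0.54) and was 0.08 in Rosa26 (adjusted p = 0.472 by edgeR), with called differences of 0.63 and 0.47. Surface molecules (13 of 16) had 6, 6 and 4 higher and 3, 5 and 4 lower (medians 0.09, 0.02 and -0.09). Of those measured 69.2%, 84.6% and 61.5% were called, beside 49.6%, 51.0% and 47.7% of all genes, and this list was not tested either. The NKG2D gene Klrk1 was higher by 1.73, 1.58 and 1.51, the CD103 gene Itgae by 1.43, 1.67 and 1.43, and S100a6 was at -1.15, -0.98 and -0.71. The NK receptor genes Klrd1 and Klrc1 rose by 2.12, 1.97 and 1.47 and by 1.58, 1.42 and 0.99.

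Fas, the receptor of FasL, had 45.6 CPM in treated and 20.6 CPM in untreated Atf4 KO cells, 38.5 and 14.3 CPM in treated and untreated Cebpg KO cells, and 30.6 and 9.9 CPM in treated and untreated Rosa26 cells (1.15, 1.43 and 1.63, adjusted p = 2.4e-08, 1.5e-09 and 5.97e-10 by edgeR). Lyst, which controls granule size, rose by 1.39, 1.60 and 1.52, and Stx11, a syntaxin of granule fusion, by 1.02, 0.92 and 0.63. Sytl2, of the same list, fell in Cebpg KO (-0.59) and Rosa26 cells (-1.03) and was -0.13 in Atf4 KO (adjusted p = 0.524 by edgeR). The chemokine gene Xcl1 rose in Atf4 KO (1.86) and Cebpg KO (1.21) and was 0.48 in Rosa26 cells (adjusted p = 0.204 by edgeR). Tnfsf14 fell in Cebpg KO (-1.40) and Rosa26 cells (-1.41) and was -0.67 in Atf4 KO (adjusted p = 0.113 by edgeR). Ccl5 rose by 1.32, 1.00 and 1.14, with untreated levels of 1.36, 1.70 and 1.71 CPM, and Gzmc fell by 1.58, 2.05 and 1.45 at no more than 1.24 CPM.

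By shape of the 6 group means, the genes nearest to a member were found among 9244 genes of at least 5 CPM, by the root mean square difference of centred log2 CPM over 6 groups, for the 5 members whose means spanned at least 1 log2 unit. Nearest to Eomes were Cks2 (0.0263) and Hmgb2 (0.0348), and nearest to Zfp683 were Sapcd2 (0.136) and H3c3 (0.176), the last uncertain because histone copies can share reads. Fasl was nearest to Pik3ip1 (0.0772) and Gramd2b (0.0775), Prdm1 to Irgm1 (0.0808) and Gbp7 (0.0816), and Ifng, at under 1 CPM, to Cebpb (0.256) and Xpot (0.297). Eomes thus had the closest match and Ifng the loosest.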

How the data were processed

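Gene counts for 18 libraries were deposited as 1 table of raw counts per gene. Per the submitters' processing notes, the authors used FastQC, MultiQC, Trimmomatic, STAR, HTSeq and edgeR with the mouse build GRCm39; tool versions and the counting's strand setting were not stated. Libraries were directional (dUTP) and poly-A selected, per the labels' protocols. Counts of all 14695 genes were fitted with edgeR 4.0.16 in R 4.3.3 (TMM scaling, robust quasi-likelihood test, 6 groups in 1 fit, Benjamini-Hochberg over all genes, threshold 0.05); limma 3.58.1 and DESeq2 1.42.0 were alternatives. Log2 fold changes carry SE, levels in counts-per-million SD. The fitting was tested on simulated data. All 10 members are named; context genes are those past the threshold with a log2 change of at least 1 with the drug or 0.5 in an interaction, up to 6 per list. Members and lists were chosen with earlier results of these data known. Replicate numbers come from the sample titles, which do not say what a number marks. Deviations of same-numbered libraries correlated positively in every pair (0.412, 0.197 and 0.661) for Cebpg KO against Atf4 KO with halofuginone. They did so more weakly for the drug in Rosa26 (0.0147, 0.321 and 0.322) and for untreated Atf4 KO against Rosa26 (0.0668, 0.0278 and 0.206). Replicate 3 was low in Malat1 in both treated knockouts (1158 and 1959.7 CPM), and whether these correlations reflect a pairing was not tested. The main fit holds no replicate block, and the blocked value is given as an alternative.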

Additional observations from a re-analysis of the deposited data

Results flagged for a closer look

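The halofuginone response differed between a knockout and Rosa26 cells, by an interaction term in edgeR, for the genes below. No explanation was tested. Besides Tnf, they were picked from the lists above for passing the threshold and for size of change. Over all genes 6.42% were called in the Atf4 KO and 2.47% in the Cebpg KO interaction. Whether the lists held a larger share was not tested. Smaller called differences are not named, among them 1 higher death ligand or receptor gene in Atf4 KO. Tnf differed by -0.60 in Atf4 KO and by -0.66 in Cebpg KO (adjusted p = 0.00452 and 0.0044 by edgeR). Serpinb6b, a granzyme-inhibiting serpin family gene, differed by 1.20 in Atf4 KO (adjusted p = 0.00876 by edgeR), with 12.5 CPM in treated and 8.23 CPM in untreated Atf4 KO cells and 8.19 CPM in treated and 12.3 CPM in untreated Rosa26 cells. Sytl2, a granule docking gene, differed by 0.90 in Atf4 KO (adjusted p = 0.0136 by edgeR). Its drug change was -0.13 in Atf4 KO and -1.03 in Rosa26 cells, so the difference is a smaller fall, from a lower untreated mean. Sytl2 had 8.39 CPM in treated and 9.16 CPM in untreated Atf4 KO cells. In Rosa26 cells it had 7.45 CPM treated and 15.1 CPM untreated. Bhlhe40 differed by 0.54 in Atf4 KO (adjusted p = 0.0126 by edgeR), with drug changes of 1.32 in Atf4 KO and 0.78 in Rosa26. Nfil3 differed by -0.80 in Cebpg KO (adjusted p = 0.00561 by edgeR), with drug changes of -0.36 in Cebpg KO and 0.43 in Rosa26. Tcf7 differed by 0.63 in Atf4 KO and 0.47 in Cebpg KO (adjusted p = 0.0023 and 0.0378 by edgeR). Cxcr6 differed by 0.94 in Atf4 KO (adjusted p = 0.00721 by edgeR), with drug changes of 0.85 in Atf4 KO and -0.09 in Rosa26. Groups of 3 libraries were not tested for outlying samples.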

How the results depend on the processing

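Of 46 member calls, 35 held under every alternative, and of 74 values not called, 59 passed under none; 0 called values changed direction. Counts of all genes called moved most. Atf4 KO against Rosa26, untreated, gave 3827 genes, 5830 by limma-voom and 6086 with only the groups compared. Cebpg KO against Rosa26, untreated, gave 735 genes and 1 member, against 1536 and 2 with median-ratio scaling, 1280 and 2 above 5 CPM, 2020 and 2 by DESeq2, 3694 and 4 by limma-voom, 4113 and 4 with only the groups compared, and 2 members with upper-quartile scaling. Cebpg KO against Atf4 KO, untreated, gave 488 genes and 2 members, against 847 and 5 above 5 CPM, 915 and 4 by DESeq2, 1972 and 5 by limma-voom, 1716 and 5 with only the groups compared, and 4 members with median-ratio scaling. With halofuginone, Atf4 KO against Rosa26 gave 4128 genes and 2373 with only the groups compared, and Cebpg KO against Rosa26 gave 5 members and 3 with only the groups compared. Cebpg KO against Atf4 KO gave 147 genes and 1 member, against 223 genes with median-ratio scaling, 291 with upper-quartile scaling, 388 and 2 members above 5 CPM, 501 by DESeq2, 1314 and 3 members by limma-voom, 1 gene and 0 members with only the groups compared, 721 and 2 members without the low-Malat1 libraries, and 90 and 0 members with the replicate block. The Atf4 KO interaction gave 943 genes and 1 member, against 1508 genes by DESeq2, 2816 and 3 members by limma-voom, 617 with only the groups compared, and 2194 and 3 members without the low-Malat1 libraries. The Cebpg KO interaction gave 363 genes and 1 member, against 558 above 5 CPM, 648 by DESeq2, 1134 and 2 members by limma-voom, and 1051 without the low-Malat1 libraries. The interaction between knockouts gave 2 genes, against 11 with upper-quartile scaling, 12 above 5 CPM, 53 by DESeq2, 130 by limma-voom and 63 without the low-Malat1 libraries.

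Leaving out 1 library gave 7 to 7 members and 6149 to 7292 genes for the drug in Rosa26, 7 to 9 and 6545 to 7601 in Atf4 KO, and 8 to 9 and 6726 to 7091 in Cebpg KO. It gave 3 to 4 and 2756 to 3149 for Atf4 KO against Rosa26 untreated, 0 to 1 and 203 to 325 for Cebpg KO, and 1 to 2 and 160 to 264 between knockouts. With halofuginone these were 6 to 6 and 3302 to 5264, 4 to 5 and 1775 to 2872, and 0 to 1 and 22 to 404. The interactions gave 1 to 2 and 650 to 1479, 1 to 1 and 210 to 434, and 0 to 0 and 1 to 4. Upper-quartile scaling moved the median of all genes by 0.11 in Cebpg KO with the drug. The share of higher calls moved by over 10 points as follows. With median-ratio scaling it was 26.2% in place of 54.1% for Cebpg KO against Rosa26 untreated, 59% in place of 37.5% for the Atf4 KO interaction and 40.7% in place of 15.2% for the Cebpg KO interaction. With DESeq2 these were 24.8%, 59.4% and 45.5%, and Cebpg KO against Atf4 KO with halofuginone had 41.9% in place of 53.7%. With upper-quartile scaling it was 57.6% in place of 44.9% for Atf4 KO against Rosa26 untreated, 52.2% in place of 41.9% with halofuginone, 50.7% in place of 30.4% for Cebpg KO against Rosa26 with halofuginone, and 33.1% in place of 15.2% for the Cebpg KO interaction. The interaction between knockouts, with 2 genes called, had 50%, against 81.8% with upper-quartile scaling and 34% with DESeq2. Besides Zfp683, the replicate block ended the untreated Atf4 KO call of Nkg7 (adjusted p = 0.0534 by edgeR) and no other member call. In comparisons other than treated Cebpg KO against treated Atf4 KO, same-numbered libraries had correlations from -0.781 to 0.431. Low counts limit Ifng, Prdm1 and Prf1. The cause of these shifts was not tested.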
